A study of Mus musculus with 18 samples.

Results

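The class I genes of the H2 region, the mouse major histocompatibility complex, were taken from the count table of lacrimal glands (LGs) by their symbols, which start with H2-K1, H2-D1, H2-L, H2-Q, H2-T, H2-M or H2-Bl. The rule found 30 of the 54232 genes counted. H2-K1 and H2-D1 are the classical genes, and the other 28 are nonclassical, with 8 H2-Q, 5 H2-T and 14 H2-M genes and H2-Bl. No row carried the symbol H2-L. The 30 genes lie on chromosome 17 of GRCm38 between the start of H2-K1 at 33996017 and the end of H2-M2 at 37483552. GENCODE M21 lists 24 of them as protein coding, 3 (H2-Q5, H2-Bl and H2-T10) as polymorphic pseudogenes, which are intact in some strains, and 3 (H2-Q3, H2-M10.5-ps1 and H2-M6-ps) as unprocessed pseudogenes. The gene that the count table calls H2-Q9, identifier ENSMUSG00000060550, is named H2-Q7 in GENCODE M21 and in RefSeq, and the name of the table is kept here.

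RNA was sequenced from LGs of male mice of the strains BALB/cJ (BALB/c) and NOD.B10Sn-H2b/J, called NOD.H-2b here, aged 2, 4 and 6 months (2M, 4M and 6M), with 3 mice in each of the 6 groups and 1 library per mouse. NOD.H-2b mice are used as a model of Sjögren's syndrome and BALB/c mice as controls, so the comparison asks how an inflamed gland differs from a control gland at each age. NOD.H-2b mice carry, on the NOD background, the H2b haplotype of C57BL/10, the haplotype of the C57BL/6J reference genome as well, while BALB/c mice carry H2d. The mice of every strain comparison therefore differ in the alleles of the genes described here, and H2 haplotypes are known to differ in the number of their Q and T genes. Strain and haplotype cannot be told apart in this design, whereas comparisons of ages within a strain hold the haplotype constant.

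Class I molecules consist of a heavy chain, coded by the H2 genes, and beta-2 microglobulin, and classical heavy chains show peptides cut by the proteasome to CD8+ T cells. Nearly all nucleated cells carry classical molecules, leukocytes more than secretory epithelium, and interferon raises them through NLRC5 and IRF factors. Nonclassical heavy chains vary less between individuals, are often limited to certain tissues, and bind receptors of NK cells, gamma delta T cells or other narrow sets of lymphocytes.

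The promoters of 4 members are shown because H2-K1 and H2-D1 are the classical genes and because the neighbours H2-Q9 and H2-Q10 differed between the strains in opposite directions. Windows run from 250 bases before to 50 bases after the RefSeq start and were taken from GRCm38.p6, that is, from the H2b haplotype and not from BALB/c. The windows are chr17:34000284-34000583 (minus strand) for H2-K1, chr17:35262844-35263143 (plus strand) for H2-D1, chr17:35438905-35439204 (plus strand) for H2-Q9, listed in RefSeq as H2-Q7, and chr17:35469839-35470138 (plus strand) for H2-Q10. Capitals mark the NF-kB motif GGGGATTCC and the interferon response motif GAANNGAAA, which was found on the opposite strand. Both strands were searched.
H2-K1: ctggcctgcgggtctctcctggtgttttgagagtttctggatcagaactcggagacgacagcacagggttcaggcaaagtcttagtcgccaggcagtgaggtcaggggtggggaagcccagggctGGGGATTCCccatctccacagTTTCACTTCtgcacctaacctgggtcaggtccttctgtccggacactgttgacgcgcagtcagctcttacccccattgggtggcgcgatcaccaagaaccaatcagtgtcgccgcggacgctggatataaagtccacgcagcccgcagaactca
H2-D1: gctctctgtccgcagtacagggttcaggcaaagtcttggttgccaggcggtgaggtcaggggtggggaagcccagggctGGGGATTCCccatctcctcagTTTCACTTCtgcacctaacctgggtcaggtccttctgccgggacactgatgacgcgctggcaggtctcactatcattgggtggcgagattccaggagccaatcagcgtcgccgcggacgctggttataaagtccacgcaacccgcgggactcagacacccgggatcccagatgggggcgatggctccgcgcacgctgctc
H2-Q9: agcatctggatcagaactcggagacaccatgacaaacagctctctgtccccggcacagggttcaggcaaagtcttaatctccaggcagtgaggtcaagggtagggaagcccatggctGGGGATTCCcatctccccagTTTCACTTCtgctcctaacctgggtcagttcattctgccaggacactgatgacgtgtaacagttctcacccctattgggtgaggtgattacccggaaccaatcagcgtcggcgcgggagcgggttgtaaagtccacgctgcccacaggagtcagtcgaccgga
H2-Q10: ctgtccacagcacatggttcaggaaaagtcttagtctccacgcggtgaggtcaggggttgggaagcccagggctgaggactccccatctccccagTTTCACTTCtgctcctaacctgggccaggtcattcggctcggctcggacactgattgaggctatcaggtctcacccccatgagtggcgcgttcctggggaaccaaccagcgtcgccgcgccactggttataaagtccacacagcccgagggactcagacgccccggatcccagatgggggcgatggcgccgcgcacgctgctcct

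Of the 22 members with a promoter in the table, 4 held the NF-kB motif (H2-K1, H2-D1, H2-Q6 and H2-Q9), against 0.250% of all 32851 promoter windows. In all 4, the interferon motif GAANNGAAA followed it, starting 104 bases before the start site in the H2-K1 window shown, where the NF-kB motif starts 125 bases before it. Both motifs together were found in 10 of the 32851 windows. The interferon motif was present in 8 members in all, H2-Q10 among them, and in 7.52% of all windows. The H2-Q10 window held no match to the NF-kB motif, to TGACG, the core of the X2 box, or to CCAAT, which 11 and 19 of the 22 members held (20.8% and 37.4% of all windows). The other spelling of the interferon motif, GAAANNGAA, was found in H2-T23 and H2-T22 and in 8.56% of all windows. Matches of the 2 spellings can overlap. A match or its absence says only whether these letters stand in these windows, and GAANNGAAA was added to the search after the windows had been seen.

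The libraries held between 49480781 and 103936830 counts. In every mouse the acinar markers of the LG (Aqp5, Scgb2b7, Scgb1b7, Lpo, Pigr and Bhlha15) summed to at least 76280 CPM, that is, counts scaled to the effective library size, while markers of skeletal muscle, adipocytes and salivary gland summed to at most 1.47, 2.64 and 12.9 CPM. Within their groups, 2 mice stood apart in T cell markers. NOD.H-2b 2M replicate 1 had 4.99 CPM over the 6 T cell genes against 19.7 and 12.4 CPM in the other 2 mice, and BALB/c 4M replicate 3 had 4.16 CPM against 1.10 and 0.771 CPM. The strain counts given below were the same without either of them (11 higher and 3 lower at 2M without the former, 12 and 3 at 4M without the latter). Members with a low level are limited by depth: 6 members had no count in any mouse, and 14 had at most 10 counts in every mouse, namely H2-Q3, H2-T3 and all H2-M genes other than H2-M3 and H2-M2. The H2-M10, H2-M1 and H2-M9 genes are known from the vomeronasal organ and H2-T3 from the intestine and thymus. The other 16 members were tested.

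Of the 30 class I genes, 11 were called higher in NOD.H-2b than in BALB/c LGs at every age, H2-Q1 and H2-Q10 were called lower at every age and H2-Bl at 2M and 4M, and 14 were not tested at any age. At 2M, 11 of the 30 members were higher in NOD.H-2b and 3 were lower, against 22.5% higher and 17.2% lower among all 17200 genes tested. The counts were 12 higher and 3 lower at 4M (background 23.4% and 19.2% of 17722 genes) and 13 higher and 2 lower at 6M (background 28.6% and 25.8% of 17750 genes), from edgeR's quasi-likelihood test with a Benjamini-Hochberg adjusted p under 0.05. Of the members, 16, 16 and 15 passed the filter on low counts at 2M, 4M and 6M. H2-Q1, H2-Q10, H2-Bl and, at 2M and 6M, H2-M2 passed it through the mice of 1 strain, so a difference was built into their passing. The median log2 fold change over the members tested was 1.44, 2.04 and 2.56, and that of all genes tested was 0.0099, 0.00034 and -0.0041. The members' median is the same with H2-Q1 and H2-Bl, which are at the floor in NOD.H-2b, set to the bounds given below. The 11 members called higher at every age were H2-K1, H2-D1, H2-Q4, H2-Q5, H2-Q6, H2-Q9, H2-T24, H2-T23, H2-T22, H2-M3 and H2-M2.

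**Figure D1:**
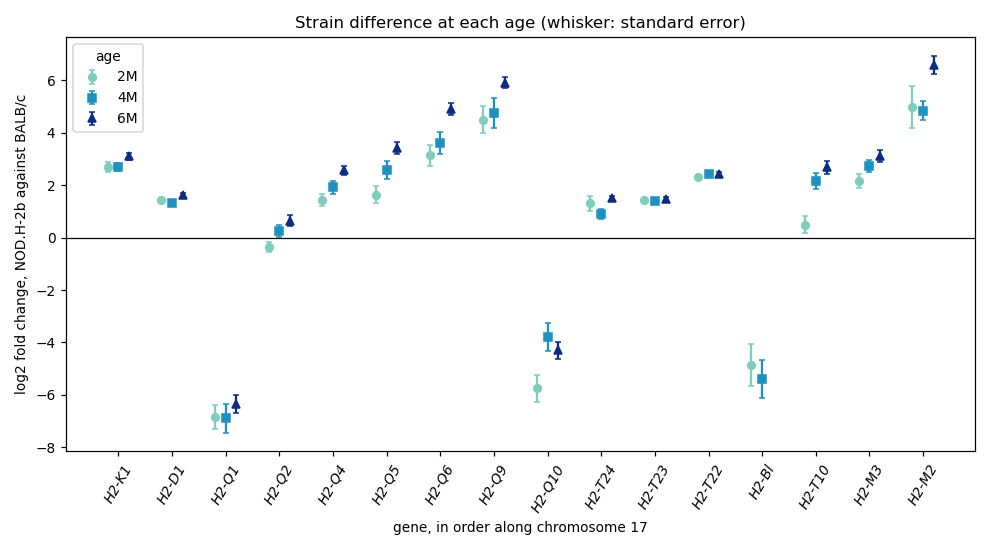
Log2 fold change of NOD.H-2b against BALB/c for the members tested, ordered along chromosome 17, with 1 symbol per age and whiskers for the standard error of edgeR's fit. H2-Q1, H2-Q10 and H2-Bl lie below 0, between -3.78 and -6.89, the fitted values of H2-Q1 and H2-Bl being no measure of size because NOD.H-2b mice had at most 3 counts. H2-Q2 lies near 0, and the other members lie above it.

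The classical gene H2-K1 (chr17:33996017-34000347, minus strand) had 56.9, 62.3 and 53.8 CPM at 2M, 67.2, 77.5 and 98.0 CPM at 4M and 67.7, 66.9 and 62.7 CPM at 6M in BALB/c. The NOD.H-2b mice had 274, 410.3 and 397 CPM at 2M, 566, 458 and 550.3 CPM at 4M and 651, 441 and 574 CPM at 6M. The lowest NOD.H-2b mouse was above the highest BALB/c mouse at each age, and the log2 fold change was 2.69 ± 0.19 at 2M (SE, adjusted p = 0.000278), 2.70 ± 0.15 at 4M and 3.11 ± 0.14 at 6M, or 6.43, 6.51 and 8.62-fold in order of age. In bulk RNA, more cells that express a gene and more RNA per cell cannot be told apart, here and at every gene below. H2-D1 (chr17:35262730-35267499, plus strand), the other classical gene, had 131, 135 and 126 CPM at 2M, 148, 168 and 188 CPM at 4M and 149, 149 and 138 CPM at 6M in BALB/c. Its NOD.H-2b values were 291, 368 and 365 CPM at 2M, 447, 374 and 445 CPM at 4M and 476, 385 and 447 CPM at 6M. These groups did not overlap either, but the difference was smaller, with a log2 fold change of 1.43 ± 0.095, 1.33 ± 0.10 and 1.61 ± 0.099 (adjusted p between 1.01e-06 and 1.32e-05).

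The balance of the classical genes differed between the strains. Per kilobase of annotated exon, H2-K1 had 0.376 to 0.405 times the level of H2-D1 in BALB/c mice at 2M and 0.376 to 0.458 over the 9 BALB/c mice of all ages. In NOD.H-2b the ratio reached 0.826 to 0.979 at 2M, 1.08 to 1.11 at 4M and 1.01 to 1.20 at 6M. The ranges of the strains did not overlap. As the alleles of both genes differ, and as H2d also carries the classical gene H2-L next to H2-D1, strain and haplotype cannot be told apart in this ratio. Of the 75-base windows of the reference transcripts, the length of a read, 3.10% of those of H2-K1 and 5.56% of those of H2-D1 also occur in another gene.

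**Figure D2:**
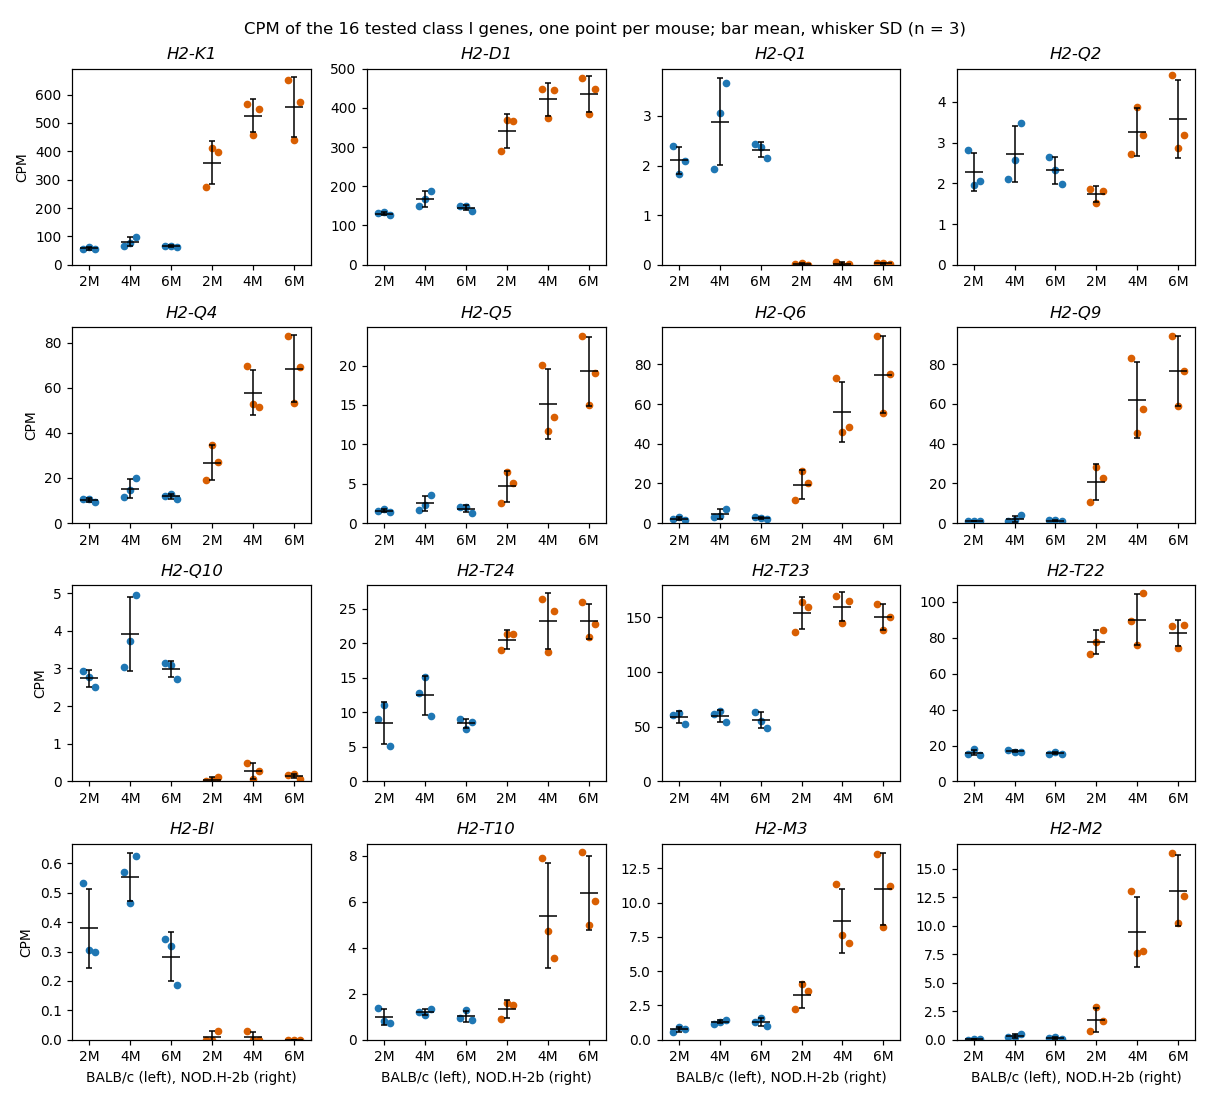
CPM of the 16 tested members in each mouse, with a panel per gene, BALB/c in blue on the left, NOD.H-2b in orange on the right and the ages within each. Points are mice, bars are means and whiskers SDs (n = 3), and every axis starts at 0. H2-Q1, H2-Q10 and H2-Bl are the panels in which BALB/c is the higher strain.

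The nonclassical H2-T genes split into H2-T22, H2-T23 and H2-T24, called higher in NOD.H-2b at every age, and H2-T10, called from 4M on. H2-T23 (chr17:36029773-36032855, minus strand), which codes for Qa-1, the ligand of the CD94/NKG2 receptors of NK cells, had 60.3, 62.7 and 52.3 CPM at 2M, 61.7, 64.2 and 54.0 CPM at 4M and 63.0, 55.5 and 48.4 CPM at 6M in BALB/c. NOD.H-2b LGs had 137, 164 and 159.5 CPM at 2M, 169, 144 and 165 CPM at 4M and 162, 138 and 149.8 CPM at 6M. The strains did not overlap and the log2 fold change was nearly the same at each age, at 1.44 ± 0.092, 1.42 ± 0.09 and 1.46 ± 0.11 (adjusted p = 6.37e-06, 3.74e-06 and 2.96e-06). H2-T22 (chr17:36037128-36042747, minus strand), a ligand of some gamma delta T cell receptors, had 15.4, 18.0 and 14.9 CPM at 2M, 17.4, 16.5 and 16.6 CPM at 4M and 15.5, 16.3 and 15.4 CPM at 6M in BALB/c. Its NOD.H-2b values were 70.8, 77.9 and 84.6 CPM at 2M, 89.5, 76.1 and 105 CPM at 4M and 86.9, 74.4 and 87.0 CPM at 6M. Again no mouse of one strain reached the other, with a log2 fold change of 2.31 ± 0.091, 2.42 ± 0.11 and 2.43 ± 0.083.

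H2-T24 (chr17:36005695-36020560, minus strand) had 9.09, 11.1 and 5.14 CPM at 2M, 12.8, 15.1 and 9.49 CPM at 4M and 8.98, 7.60 and 8.60 CPM at 6M in BALB/c. The level in NOD.H-2b was 19.0, 21.3 and 21.3 CPM at 2M, 26.4, 18.7 and 24.7 CPM at 4M and 25.9, 20.9 and 22.8 CPM at 6M. Its log2 fold change was 1.32 ± 0.28 at 2M (adjusted p = 0.0172), 0.91 ± 0.19 at 4M and 1.5 ± 0.11 at 6M without overlap, and the call at 2M was lost without BALB/c 2M replicate 1, NOD.H-2b 2M replicate 2 or NOD.H-2b 2M replicate 3 (adjusted p between 0.0519 and 0.0716). H2-T22, H2-T23 and H2-T24 all overlap A930015D03Rik, an antisense gene on the plus strand, and the strand setting of the counting is not stated. A930015D03Rik itself was low, at most 2.04 CPM in any mouse, and its log2 fold changes of -1.37, 0.45 and -0.89 had no common direction (called lower at 2M and 6M, adjusted p = 0.370 at 4M). A share of 40.0% of the 75-base windows of H2-T22 and 36.0% of those of H2-T10 occur in another annotated gene (H2-T23 5.91%, H2-T24 0.459%), mainly in the antisense genes that overlap them (A930015D03Rik and BC023719), so that these counts are uncertain where reads could be split.

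H2-T10 (chr17:36115876-36121465, minus strand), like H2-T22 a ligand of gamma delta T cells and in GENCODE a polymorphic pseudogene, had 1.37, 0.825 and 0.740 CPM at 2M, 1.22, 1.05 and 1.34 CPM at 4M and 0.944, 1.28 and 0.841 CPM at 6M in BALB/c. NOD.H-2b mice had 0.903, 1.60 and 1.52 CPM at 2M, 7.92, 4.73 and 3.54 CPM at 4M and 8.15, 4.97 and 6.03 CPM at 6M. At 2M the strains overlapped and the log2 fold change was 0.50 ± 0.31 (adjusted p = 0.234), whereas at 4M and 6M they were apart, at 2.17 ± 0.30 and 2.68 ± 0.23 (adjusted p = 0.000455 and 8.70e-06). H2-T10 overlaps BC023719, which had no count, and Gm7030, which had at most 0.0638 CPM.

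Among the H2-Q genes, H2-Q4, H2-Q5, H2-Q6 and H2-Q9 were higher in NOD.H-2b at every age, and the fold was larger at 6M than at 2M for each. H2-Q6 (chr17:35424850-35430055, plus strand) and H2-Q9 (chr17:35439155-35443773, plus strand) belong to the genes for Qa-2, a molecule anchored to the membrane by glycolipid. H2-Q6 had 2.23, 2.83 and 1.71 CPM at 2M, 3.11, 3.35 and 7.18 CPM at 4M and 2.93, 2.34 and 2.27 CPM at 6M in BALB/c. In NOD.H-2b its values were 11.7, 26.1 and 20.2 CPM at 2M, 73.1, 45.9 and 48.6 CPM at 4M and 94.0, 55.3 and 75.2 CPM at 6M. The log2 fold change was 3.14 ± 0.40, 3.61 ± 0.43 and 4.90 ± 0.23, with no overlap at any age. H2-Q9 had 0.897, 1.04 and 0.881 CPM at 2M, 1.14, 1.58 and 4.01 CPM at 4M and 1.39, 1.43 and 1.03 CPM at 6M in BALB/c. The values of NOD.H-2b were 10.7, 28.5 and 22.9 CPM at 2M, 83.1, 45.4 and 57.4 CPM at 4M and 94.1, 59.1 and 76.7 CPM at 6M. With log2 fold changes of 4.50 ± 0.51, 4.76 ± 0.58 and 5.91 ± 0.21, or 22.7, 27.0 and 60.01-fold, H2-Q9 was the most different of the H2-Q genes that were higher in NOD.H-2b.

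H2-Q4 (chr17:35379617-35385290, plus strand) had 10.7, 10.5 and 9.41 CPM at 2M, 11.4, 14.7 and 19.8 CPM at 4M and 11.8, 13.0 and 10.6 CPM at 6M in BALB/c. The NOD.H-2b mice had 18.9, 34.5 and 27.0 CPM at 2M, 69.5, 52.6 and 51.4 CPM at 4M and 82.9, 53.2 and 69.1 CPM at 6M. Mice of the same age did not overlap, although NOD.H-2b 2M replicate 1 lay below BALB/c 4M replicate 3, and the log2 fold change was 1.44 ± 0.24, 1.92 ± 0.23 and 2.56 ± 0.16. The antisense gene Gm11131, which overlaps H2-Q4, was also higher in NOD.H-2b, by 2.09, 2.47 and 4.12 on the log2 scale at 2M, 4M and 6M, with at most 234 counts in any mouse. H2-Q5 (chr17:35394126-35397800, plus strand), a polymorphic pseudogene, had 1.53, 1.74 and 1.37 CPM at 2M, 1.66, 2.31 and 3.53 CPM at 4M and 2.06, 2.06 and 1.31 CPM at 6M in BALB/c. NOD.H-2b LGs had 2.55, 6.44 and 5.08 CPM at 2M, 20.1, 11.7 and 13.5 CPM at 4M and 23.8, 15.0 and 19.1 CPM at 6M. Its log2 fold change was 1.64 ± 0.33, 2.59 ± 0.34 and 3.42 ± 0.22. Between 16.9% and 21.2% of the windows of H2-Q4, H2-Q5, H2-Q6 and H2-Q9 occur in another gene, which is mainly Gm11131 for H2-Q4, H2-Q9 for H2-Q5 and H2-Q6, and H2-Q10 for H2-Q9, so that the copy a read came from is uncertain.

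H2-Q2 (chr17:35342242-35346762, plus strand) differed little. It had 2.83, 1.95 and 2.06 CPM at 2M, 2.12, 2.58 and 3.47 CPM at 4M and 2.66, 2.32 and 1.99 CPM at 6M in BALB/c. The level in NOD.H-2b was 1.87, 1.52 and 1.82 CPM at 2M, 2.71, 3.88 and 3.18 CPM at 4M and 4.66, 2.87 and 3.19 CPM at 6M. The log2 fold change was -0.35 ± 0.20 at 2M and 0.26 ± 0.22 at 4M (adjusted p = 0.201 and 0.389), and 0.65 ± 0.22 at 6M (adjusted p = 0.0279). A share of 8.07% of its windows occurs in another gene. The call at 6M was lost without BALB/c 6M replicate 2, BALB/c 6M replicate 3 or NOD.H-2b 6M replicate 1, with an adjusted p of up to 0.110.

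H2-Q1, H2-Q10 and H2-Bl had counts in every BALB/c mouse and were at or near 0 in NOD.H-2b. H2-Q1 (chr17:35320405-35325099, plus strand) had 2.39, 1.83 and 2.10 CPM at 2M, 1.93, 3.06 and 3.67 CPM at 4M and 2.43, 2.38 and 2.15 CPM at 6M in BALB/c. No NOD.H-2b mouse had more than 3 counts of it. Set against 3 counts per library, NOD.H-2b had at least 44.4-fold lower H2-Q1 at 2M, 57.0-fold at 4M and 48.2-fold at 6M, bounds that cover counting error only. H2-Bl (chr17:36080115-36084223, minus strand) had 0.534, 0.305 and 0.299 CPM at 2M, 0.571, 0.467 and 0.626 CPM at 4M and 0.343, 0.319 and 0.187 CPM at 6M in BALB/c and at most 2 counts in any NOD.H-2b mouse. The bound was 8.02-fold at 2M, 10.9-fold at 4M and, where it did not pass the filter, 5.88-fold at 6M. Of the windows of H2-Q1 and H2-Bl, 10.9% and 3.74% occur in another gene. Among all genes, H2-Q1 shares the most windows with H2-D1 (4.2% of those of H2-D1), and H2-Q10 with H2-K1 (2.38% of those of H2-K1). Whether BALB/c reads of other class I genes were placed on H2-Q1, H2-Q10 or H2-Bl was not tested.

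H2-Q10 (chr17:35470089-35474563, plus strand) codes for a secreted class I molecule made mainly by the liver. It had 2.94, 2.76 and 2.50 CPM at 2M, 3.04, 3.73 and 4.96 CPM at 4M and 3.14, 3.09 and 2.73 CPM at 6M in BALB/c. NOD.H-2b mice had 0, 0.0304 and 0.110 CPM at 2M, 0.500, 0.0618 and 0.280 CPM at 4M and 0.170, 0.193 and 0.0702 CPM at 6M. Its counts in NOD.H-2b lay between 0 and 33, the highest in NOD.H-2b 4M replicate 1, and the log2 fold change was -5.75 ± 0.50, -3.78 ± 0.54 and -4.31 ± 0.31 (adjusted p = 1.14e-05, 0.00121 and 2.70e-06). A share of 12.5% of its windows occurs in another gene. The windows shown above for H2-Q9 and H2-Q10 belong to neighbouring members with opposite strain differences, both called at every age. Strain and haplotype cannot be told apart for these 3 genes, and NOD.H-2b, the strain in which they are low, carries the haplotype of the reference.

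The H2-M genes that were detected both differed by a large factor. H2-M3 (chr17:37270220-37274484, plus strand), which shows N-formylated peptides, such as those of bacteria and mitochondria, to CD8+ T cells, had 0.553, 0.896 and 0.810 CPM at 2M, 1.18, 1.32 and 1.42 CPM at 4M and 1.26, 1.57 and 1.03 CPM at 6M in BALB/c. The values of NOD.H-2b were 2.23, 4.05 and 3.54 CPM at 2M, 11.4, 7.63 and 7.05 CPM at 4M and 13.5, 8.24 and 11.2 CPM at 6M. The log2 fold change was 2.16 ± 0.27, 2.74 ± 0.21 and 3.12 ± 0.22, and no mice of the same age overlapped. H2-M2 (chr17:37480851-37483552, minus strand) had 0, 0.108 and 0.0529 CPM at 2M, 0.221, 0.243 and 0.492 CPM at 4M and 0.118, 0.255 and 0.0467 CPM at 6M in BALB/c. The NOD.H-2b mice had 0.739, 2.86 and 1.62 CPM at 2M, 13.0, 7.62 and 7.75 CPM at 4M and 16.4, 10.2 and 12.6 CPM at 6M. BALB/c mice had between 0 and 33 counts of it, and the log2 fold change was 4.99 ± 0.80, 4.85 ± 0.36 and 6.58 ± 0.35. No 75-base window of H2-M3 or H2-M2 occurs in another gene.

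Summed over genes, the classical and nonclassical members differed between the strains by similar factors. H2-K1 and H2-D1 together stood at 188 ± 8.92 CPM (SD, n = 3) in BALB/c against 702 ± 119 CPM in NOD.H-2b among mice of 2M, and at 249 ± 35.1 against 947 ± 100.4 CPM and 211 ± 9.39 against 991 ± 153 CPM among those of 4M and 6M. For the 28 nonclassical members the sums were 107 ± 11.6 against 331 ± 48.8 CPM at 2M, 127 ± 6.32 against 491 ± 74.0 CPM at 4M, and 108 ± 10.1 against 529 ± 85.0 CPM at 6M. The log2 fold of these sums between the strains was 1.94, 1.93 and 2.26 for the classical and 1.67, 1.96 and 2.33 for the nonclassical members, values that were not tested. The nonclassical sum joins regions that differed unequally. At 6M the BALB/c and NOD.H-2b means were 80.8 and 262 CPM for H2-T, 25.05 and 243 CPM for H2-Q, and 1.47 and 24.1 CPM for H2-M genes. Per kilobase, the classical genes held 63.6 to 68.7% of the class I RNA counted over the 9 BALB/c mice and 63.5 to 69.2% over the 9 NOD.H-2b mice. H2-L, which H2d carries, was not counted as a gene, and BALB/c reads can be lost or placed on another member. The BALB/c sums and share cover only what was counted, and a comparison with NOD.H-2b carries this limit. Within NOD.H-2b the classical share came to 68.5 ± 0.628% at 2M, 65.5 ± 1.87% at 4M and 64.3 ± 0.630% at 6M, and within BALB/c it was 64.7 ± 1.70%, 66.4 ± 2.05% and 66.9 ± 1.25%. By mean level per kilobase, the order in BALB/c at 2M was H2-D1 (50.6 CPM per kilobase), H2-T23 (20.2), H2-K1 (19.6) and H2-T22 (4.71), and in NOD.H-2b at 6M it was H2-K1 (189), H2-D1 (169), H2-T23 (51.9) and H2-Q6 (35.9). All NOD.H-2b mice of 6M had a lower share than all NOD.H-2b mice of 2M, and the ranges of the strains over all ages overlapped.

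**Figure D3:**
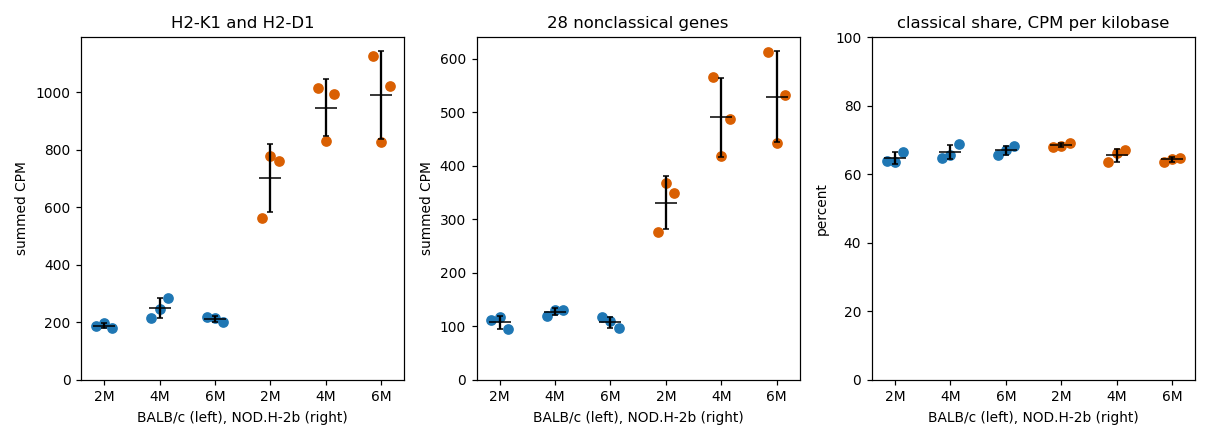
Summed CPM of the classical genes, summed CPM of the 28 nonclassical genes, and the classical percentage of their sum per kilobase of exon, by strain and age. Points are mice, bars means and whiskers SDs (n = 3). The sums separate the strains at every age, while the share stays between 63.4% and 69.2% in all 18 mice. H2-L, which H2d carries, was not counted as a gene and is in neither BALB/c measure.

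With age, H2-K1 and 8 nonclassical members rose in NOD.H-2b, the latter by 1.02 to 2.88 on the log2 scale. From 2M to 6M, 9 of the 30 members were called higher in NOD.H-2b and 0 lower, against 20.7% and 19.4% of all 18008 genes tested, and 13 members passed the filter, with a median log2 fold change of 1.33 against -0.011 over all genes tested. H2-K1 rose by 0.60 ± 0.19 on the log2 scale (adjusted p = 0.0406), and H2-D1 had a log2 fold change of 0.33 ± 0.12 with an adjusted p of 0.0591. Both results depended on the setting. The H2-K1 call was lost without a filter on low counts (adjusted p = 0.110), without NOD.H-2b 2M replicate 1 or replicate 3, and without NOD.H-2b 6M replicate 1 or replicate 3 (adjusted p between 0.0661 and 0.184). H2-D1 was called with upper quartile scaling, without a filter, with at least 10 counts in every sample, by DESeq2, in the fit of all 18 mice and without NOD.H-2b 6M replicate 2 (adjusted p between 0.0104 and 0.0499). H2-Q2 rose by 1.02 ± 0.21, H2-Q4 by 1.33 ± 0.28, H2-Q5 by 2.02 ± 0.39, H2-Q6 by 1.93 ± 0.38 and H2-Q9 by 1.86 ± 0.43, all 5 H2-Q genes tested. H2-T10 rose by 2.23 ± 0.26 (adjusted p = 0.000964), H2-M3 by 1.72 ± 0.27 and H2-M2 by 2.88 ± 0.51. As the values above show, all mice of 6M exceeded all mice of 2M at these 8 nonclassical genes and at both classical genes. The share of all genes separated in this way was not determined, so the separation adds no support to the calls. The number of members called higher fell from 9 to 3 without NOD.H-2b 2M replicate 3 and to 5 without NOD.H-2b 6M replicate 1. It was between 6 and 9 without any of the other 4 mice (8 without NOD.H-2b 2M replicate 1). H2-Q2, H2-T10 and H2-M3 stayed called whichever of the 6 mice was left out.

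H2-T22, H2-T23 and H2-T24, whose strain differences were called from 2M on, were not called with age. The log2 fold change from 2M to 6M in NOD.H-2b was 0.16 ± 0.096 for H2-T24, -0.054 ± 0.098 for H2-T23 and 0.069 ± 0.092 for H2-T22. The 95% intervals were -0.06 to 0.37, -0.27 to 0.17 and -0.14 to 0.28, all of which lie below the lower bound of each of the 5 H2-Q genes (0.55 to 1.49 for H2-Q2, the lowest of them). As these genes were tested one by one, the difference between genes was not tested.

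From 2M to 4M, 13 of the 30 members passed the filter in NOD.H-2b. Of these, 6 were called higher (H2-Q2, H2-Q4, H2-Q5, H2-T10, H2-M3 and H2-M2) and 0 lower, against 10.3% and 5.48% of 17763 genes. Their log2 fold changes ran from 0.90 at H2-Q2 to 2.44 at H2-M2, and H2-Q6 and H2-Q9 had 1.53 ± 0.36 and 1.58 ± 0.44 with adjusted p values of 0.0511 and 0.0731. This count depended on single mice, with 0 called without NOD.H-2b 2M replicate 3, 2 without NOD.H-2b 4M replicate 2 and 3 without NOD.H-2b 4M replicate 1 or replicate 3, and 7 without NOD.H-2b 2M replicate 1, and 11 were called in 1 fit of all 18 mice.

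In BALB/c, 0 members were called from 2M to 6M in either direction (background 3.48% higher and 2.13% lower of 16579 genes), by edgeR's and by DESeq2's test, and 3 of 15 had an unadjusted p under 0.05. The median log2 fold change was 0.14, and the largest was 0.77 ± 0.27 at H2-M3 (95% interval 0.17 to 1.36). Without BALB/c 6M replicate 3, 2 members were called. From 2M to 4M in BALB/c, 16 members were tested. H2-D1 and H2-M2 were called higher, at 0.37 ± 0.076 and 2.53 ± 0.71 on the log2 scale, and 0 lower (background 6.10% and 5.01% of 16639 genes). This count was 8 without BALB/c 4M replicate 1, 1 without BALB/c 2M replicate 1, 0 without BALB/c 2M replicate 3 or BALB/c 4M replicate 2, 2 without BALB/c 4M replicate 3, and 6 by DESeq2's test. The H2-M2 call was lost without BALB/c 4M replicate 3 (adjusted p = 0.140), BALB/c 4M replicate 2, BALB/c 2M replicate 1 or BALB/c 2M replicate 3 and in the fit of all 18 mice, and the H2-D1 call without BALB/c 2M replicate 3 or BALB/c 4M replicate 2. H2-M2 had 0, 6 and 3 counts at 2M and 12, 12 and 33 counts at 4M. It passed the filter through the mice of 4M, so a difference was built into its passing. BALB/c 4M replicate 3, with the highest T cell markers of the 9 BALB/c mice, was also the highest of its group for every H2-Q gene tested, both classical genes, H2-T10, H2-Bl, H2-M3 and H2-M2. The same mouse was the lowest of its group for H2-T23 (54.0 CPM) and H2-T24 (9.49 CPM), and it was not the highest for H2-T22. How many of all genes were highest in this mouse was not determined, so the ranking describes 1 library only.

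**Figure D4:**
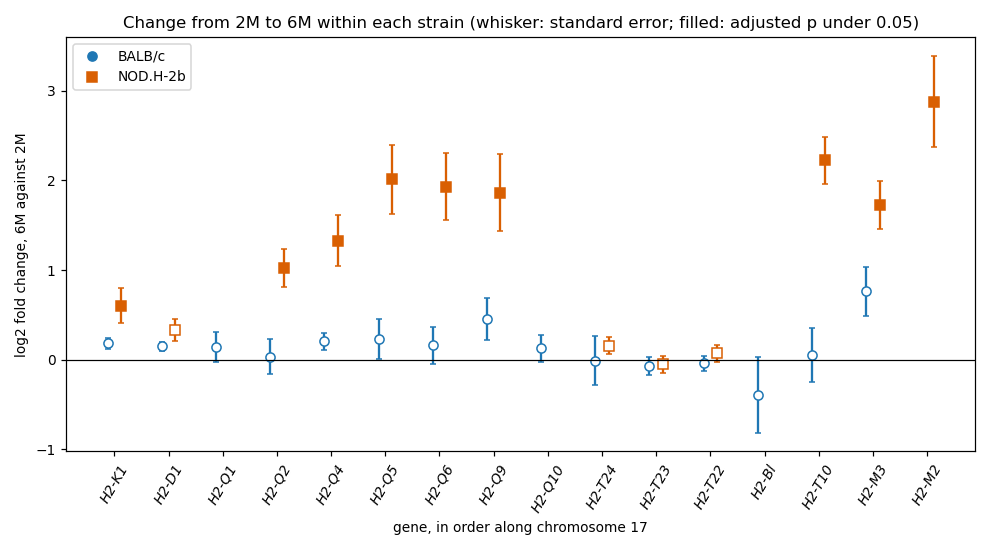
Log2 fold change from 2M to 6M within each strain, BALB/c as blue circles and NOD.H-2b as orange squares, with the standard error as whiskers and filled symbols for an adjusted p under 0.05. In NOD.H-2b the H2-Q genes, H2-T10, H2-M3 and H2-M2 lie between 1.02 and 2.88, H2-T24, H2-T23 and H2-T22 lie near 0, and no BALB/c symbol is filled.

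Whether the strains differed in their change with age was tested as an interaction in 1 fit of all 18 mice. The strain difference was larger at 6M than at 2M for 5 of the 16 members tested, H2-Q2, H2-Q4, H2-Q5, H2-Q6 and H2-T10, and smaller for 0, against 7.04% and 9.09% of 19117 genes tested. The log2 differences were 1.01 ± 0.32 at H2-Q2 (adjusted p = 0.0382), 1.14 ± 0.34 at H2-Q4, 1.79 ± 0.50 at H2-Q5, 1.77 ± 0.56 at H2-Q6 (adjusted p = 0.0482) and 2.19 ± 0.44 at H2-T10 (adjusted p = 0.00500). For the classical genes the difference was 0.43 ± 0.24 at H2-K1 (95% interval -0.079 to 0.94) and 0.20 ± 0.14 at H2-D1 (-0.11 to 0.50), and for H2-T23 it was 0.034 ± 0.14 (-0.27 to 0.34). Leaving out single mice gave between 1 and 6 calls, with 1 call without BALB/c 2M replicate 1, BALB/c 2M replicate 3, NOD.H-2b 2M replicate 3, BALB/c 6M replicate 3 or NOD.H-2b 6M replicate 1. There were 2 calls without BALB/c 2M replicate 2, NOD.H-2b 2M replicate 1, BALB/c 4M replicate 2, BALB/c 6M replicate 1 or BALB/c 6M replicate 2, and 3 without NOD.H-2b 6M replicate 3. H2-T10 stayed called whichever of the 18 mice was left out.

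The other genes of the pathway were described from lists that hold no class I heavy chain of the H2 region, and their counts stand beside 22.5%, 23.4% and 28.6% of all genes called higher in NOD.H-2b at 2M, 4M and 6M and 17.2%, 19.2% and 25.8% called lower. All 5 immunoproteasome genes, which code for the inducible proteasome subunits and activators that favour class I peptides, were higher in NOD.H-2b at every age. Psmb9 was higher by 3.27 ± 0.34 (log2) at 2M and 4.14 ± 0.21 at 6M, and Psmb8 by 3.06 ± 0.20 and 3.90 ± 0.22. All 5 also rose from 2M to 6M in NOD.H-2b (background 20.7% higher). In BALB/c, 3 of 5 were called higher from 2M to 4M (background 6.10%) and 0 of 5 from 2M to 6M (background 3.48%). Psmb8 and Psmb9 lie in the H2 region, so that they too differ in haplotype, while Psmb10, Psme1 and Psme2 lie on other chromosomes and differed by 1.55 ± 0.19, 1.23 ± 0.078 and 1.18 ± 0.095 at 2M.

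Of the 9 genes of the light chain and of peptide loading, 7 were called higher and 0 lower in NOD.H-2b mice of 2M, 6 higher and 2 lower at 4M, and 6 higher and 3 lower at 6M. The lower calls, 22.2% at 4M and 33.3% at 6M, stand beside 19.2% and 25.8% of all genes. B2m, the light chain of all these molecules, was higher by 0.96 ± 0.11 at 2M and 1.35 ± 0.13 at 6M, and its log2 fold change from 2M to 6M in NOD.H-2b was 0.27 ± 0.14 (adjusted p = 0.145). Tap1 and Tap2, the peptide transporter of the endoplasmic reticulum, were higher by 3.00 ± 0.28 and 2.21 ± 0.14 at 2M and by 3.67 ± 0.20 and 2.74 ± 0.13 at 6M. The 3 genes that were lower at 6M were the general chaperones Calr, Canx and Pdia3, at -0.51 ± 0.15, -0.44 ± 0.10 and -0.58 ± 0.098, which serve the folding of most secreted proteins.

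Of 14 transcription factors of class I genes, 10 were higher in NOD.H-2b at 2M, 11 at 4M and 13 at 6M, and 0 were lower. Nlrc5, the coactivator of classical and many nonclassical class I genes, was higher by 4.32 ± 0.46 at 2M (adjusted p = 0.00196) and 5.38 ± 0.41 at 6M. Irf1 was higher by 1.15 ± 0.19 at 2M and 1.74 ± 0.17 at 6M. From 2M to 6M in NOD.H-2b, 10 of the 14 rose and 0 fell, against 20.7% and 19.4% of all genes tested. Of the class I-like genes outside the region, 8 of 14 were tested, with 4 higher and 0 lower among NOD.H-2b mice of 2M, 5 higher and 1 lower at 4M, and 7 higher and 0 lower at 6M, that is, 50.0%, 62.5% and 87.5% higher against 22.5%, 23.4% and 28.6% of all genes. Cd1d1, which shows lipids to NKT cells, differed by 0.86 ± 0.36 at 2M (adjusted p = 0.0812) and was higher by 3.16 ± 0.32 at 6M.

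Receptors of class I molecules, 18 genes of T and NK cells and myeloid cells, were higher in NOD.H-2b for all 13 tested at 2M, 15 of 16 at 4M and all 17 at 6M. In the comparisons of ages, 3 of the 18 passed the filter on low counts in BALB/c and all 18 in NOD.H-2b. Most receptor genes thus passed through the NOD.H-2b mice, so a difference was built into their passing. Cd8a and Cd8b1, the coreceptor of T cells for class I, were higher by 5.68 ± 0.42 and 7.22 ± 0.46 at 6M, and Klrd1, the CD94 chain that binds Qa-1, by 4.62 ± 0.50. Ly49 receptor genes (Klra) differ in number and sequence between strains, so that their values carry the same limit as the class I genes. The 7 class II genes of the region, which show peptides to CD4+ T cells and mark antigen-presenting cells, were higher for 6 at 2M and for all 7 at 4M and 6M. Between H2-K1 and H2-M3 the count table holds 269 other genes, among them the class II genes, Tap1, Tap2, Psmb8 and Psmb9 already described. Of 116 tested at 2M, 34 were higher and 19 lower, which is 29.3% and 16.4% against 22.5% and 17.2% of all genes. Of 122 tested at 6M, 51 were higher and 23 lower, 41.8% and 18.9% against 28.6% and 25.8%, with a median log2 fold change of 0.11 at 2M and 0.23 at 6M.

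Markers of leukocytes, T cells and B cells each summed to more in NOD.H-2b than in BALB/c mice of the same age. Over 5 leukocyte genes (Ptprc, Coro1a, Lcp1, Cd52 and Laptm5) the sum was 175 to 194 CPM in the 9 BALB/c mice and 299 to 387 CPM at 2M, 534 to 745 CPM at 4M and 608 to 844 CPM at 6M in NOD.H-2b. All 5 were higher in NOD.H-2b at each age. Their log2 fold changes had a median of 2.89 at 2M and 4.15 at 6M, and a minimum of 0.50 and 0.58. The sum thus differed less between the strains than most of its genes. The 6 T cell genes summed to 0.264 to 4.16 CPM in BALB/c and rose in NOD.H-2b from 4.99, 19.7 and 12.4 CPM at 2M to 65.0, 47.1 and 61.1 CPM at 6M. The 6 B cell genes summed to 0.0352 to 2.09 CPM in BALB/c, and to 1.46, 26.1 and 11.0 CPM at 2M and 402, 202 and 263 CPM at 6M in NOD.H-2b. No BALB/c mouse had more than 87 counts of any of these 12 genes, or more than 5 counts of the B cell genes Ms4a1 and Pax5, both of which were at 0 in at least 1 of them. All 6 genes of both lists were called higher from 2M to 6M in NOD.H-2b, as were 4 of the 5 leukocyte genes, 5 of 7 macrophage genes and 3 of 5 dendritic cell genes. Among all genes tested over these ages, 20.7% were called higher and 19.4% lower. Of the 8 genes of epithelial structure and the 6 acinar genes, 6 and 4 were called lower over the same ages. NOD.H-2b 2M replicate 1, the lowest of its group in T and B cell markers, was also the lowest of its group for H2-K1, H2-D1, H2-Q4, H2-Q5, H2-Q6, H2-Q9, H2-T10, H2-T22, H2-T23, H2-T24, H2-M3 and H2-M2. For H2-Q2 this mouse was the highest of its group, at 1.87 CPM against 1.52 and 1.82 CPM. The share of all genes that were lowest in this mouse was not determined, so the ranking describes 1 library only. Over 7 macrophage genes the sums were 44.5 to 103 CPM in BALB/c and 152 to 251 CPM in NOD.H-2b, over 5 dendritic cell genes 2.96 to 10.4 and 12.3 to 41.5 CPM, and over 5 endothelial genes, of which 1 was called higher and 0 lower with age in NOD.H-2b, 26.3 to 47.8 and 37.2 to 68.1 CPM. The part of cell composition in the strain and age differences was not tested.

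**Figure D5:**
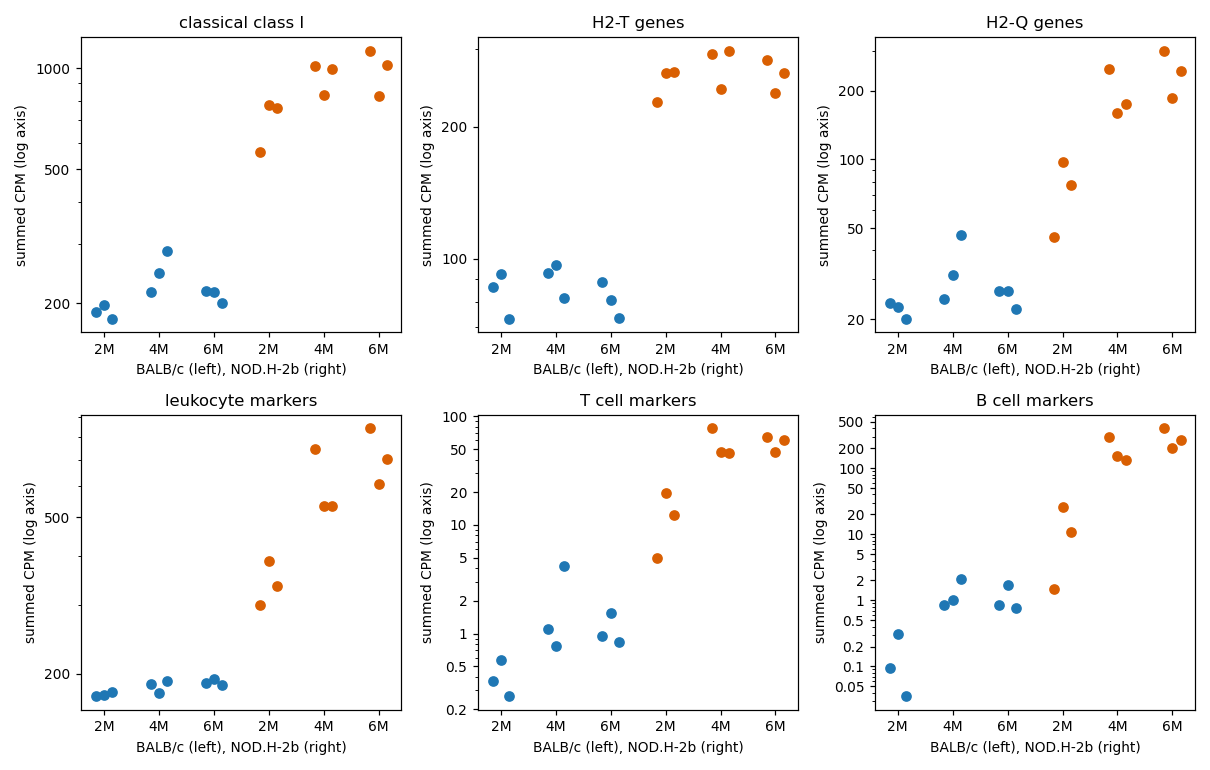
Summed CPM on log axes of the classical genes, the H2-T genes, the H2-Q genes and 3 lists of immune cell markers, with 1 point per mouse, BALB/c in blue and NOD.H-2b in orange. In NOD.H-2b the H2-Q sum and the T and B cell sums are higher in every mouse of 6M than in every mouse of 2M, while the H2-T sum is 227 to 267 CPM at 2M and 238 to 283 CPM at 6M. BALB/c 4M replicate 3 is the highest BALB/c point for H2-Q genes and T cell markers, and the lowest of its group for H2-T genes.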

How the data were processed

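Whole LGs of 18 male mice were sequenced, 1 library per mouse, with mice as replicates in the 6 groups named by the labels, and nothing in the labels ties same-numbered mice together. The authors depleted ribosomal RNA, sequenced 75-base read pairs, removed adapters (cutadapt), used STAR for alignment to GRCm38, and obtained gene counts from HTSeq. The deposited table holds these raw counts. The annotation release and the strand setting are not given in the sources used here, and a second table of log2 normalized values was not used. Reads were mapped to a reference of haplotype H2b, so that BALB/c reads can be lost or placed on another member.

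From the counts, genes were filtered with filterByExpr of edgeR and tested with its quasi-likelihood test after TMM scaling (edgeR 4.0.16, limma 3.58.1, R 4.3.3), in the 6 mice of each comparison, or in all 18 mice for the interaction of strain and age. A call is a Benjamini-Hochberg adjusted p under 0.05 over all genes tested. Log2 fold changes carry the standard error, and 95% intervals come from the same fit. The CPM printed were scaled by TMM over all 18 mice. Overlap between members was the share of 75-base windows of their GENCODE M21 exons found in another gene, and promoters came from a RefSeq table of GRCm38.p6 (250 bases before to 50 after the start), with 22 of 30 members matched. The members and lists were chosen with earlier results of these data known. All members that passed the filter are named, and genes of other lists are named as examples. On simulated counts of the 2M comparison (16953 genes), 73% of genes changed by 1 on the log2 scale and 100% of those changed by 2 were recovered. For NOD.H-2b from 2M to 6M, 71% of genes changed by 1 were recovered, and for the interaction 74% of those changed by 1.5. Only genes above a set mean count were changed, and every gene was given the same spread between mice. The recovery therefore does not describe members with few counts or a wide spread. Alternatives were DESeq2 (1.42.0) size factors and Wald test, upper quartile scaling, no filter, at least 10 counts in every sample, a replicate block, 1 fit of all 18 mice, a 2-fold rule and leaving out each mouse. Replicate libraries were compared and none were duplicates. Some genes of the lists are not reported here by name.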

Additional observations from a re-analysis of the deposited data

Results flagged for a closer look

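For 5 members the change from 2M to 6M differed between the strains by the test of the interaction itself (edgeR, adjusted p under 0.05), with the strain difference larger at 6M. On the log2 scale the difference was 1.006 for H2-Q2 (adjusted p = 0.0382), 1.14 for H2-Q4 (adjusted p = 0.0374), 1.794 for H2-Q5 (adjusted p = 0.0291), 1.775 for H2-Q6 (adjusted p = 0.0482) and 2.187 for H2-T10 (adjusted p = 0.00500). H2-Q2 and H2-T10 are also the members whose strains overlapped at one of the ages. The 95% intervals were 0.34 to 1.67 for H2-Q2, 0.41 to 1.87 for H2-Q4, 0.71 to 2.88 for H2-Q5, 0.56 to 2.98 for H2-Q6 and 1.25 to 3.12 for H2-T10.

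With each of the 18 mice left out in turn, the call was lost in 9 fits for H2-Q2, 11 for H2-Q4, 7 for H2-Q5 and 14 for H2-Q6, and in 0 for H2-T10. In the same mice, T cell markers summed to 4.99 to 19.7 CPM at 2M and 47.1 to 65.0 CPM at 6M in NOD.H-2b, and to 0.264 to 0.574 CPM at 2M and 0.841 to 1.55 CPM at 6M in BALB/c, without overlap of the ages in either strain. By the same interaction test, 0 of the 6 T cell genes and 0 of the 6 B cell genes were called, with median log2 differences of 0.28 and 3.08. Within BALB/c from 2M to 6M, 2 of these T cell genes and 1 of these B cell genes passed the filter on low counts. With BALB/c so near the floor, the missing calls do not show that the strains changed alike at these marker genes. Their part in the interaction was not tested.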

How the results depend on the processing

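The counts of members higher in NOD.H-2b stayed within 1.5 times of the reported values under every alternative run, with 10 to 11 at 2M, 12 at 4M and 12 to 13 at 6M without single mice. The counts lower in NOD.H-2b (3, 3 and 2) became 0 at each age when 10 counts were required in every sample, which removes H2-Q1, H2-Q10 and H2-Bl by construction. Counts with age were less stable. From 2M to 4M in BALB/c, 2 calls became 7 without a filter on low counts, 1 with at least 10 counts in every sample, 6 with DESeq2's test, 1 in a fit of all 18 mice and 1 under the 2-fold rule, and ranged from 0 to 8 without single mice. From 2M to 6M in BALB/c, 0 calls became 0 to 2 without single mice. In NOD.H-2b, 6 calls from 2M to 4M became 3 without a filter and 11 in a fit of all 18 mice (0 to 7 without single mice), and the 9 calls from 2M to 6M became 3 to 9 without single mice. The 5 interaction calls became 2 without a filter and 1 to 6 without single mice. The cause was not tested.

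Same-numbered mice deviated from their group means with correlations of -0.303 to 0.302. Mice of different numbers were not correlated, so these values cannot settle whether the numbers pair the mice. With a replicate block the call of H2-K1 from 2M to 6M in NOD.H-2b was lost (adjusted p = 0.118), as was that of H2-M2 from 2M to 4M in BALB/c (0.0556). The calls in NOD.H-2b were 0 from 2M to 4M and 3 from 2M to 6M, the interaction calls were 3, and the strain counts were the reported ones.

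Reversals of sign occurred at 3 H2-T genes that were not called, each without single mice. H2-T23 ranged from -0.045 to 0.12 from 2M to 4M and from -0.13 to 0.013 from 2M to 6M in NOD.H-2b, and the interaction from -0.11 to 0.088 for H2-T23, -0.12 to 0.39 for H2-T24 and -0.015 to 0.19 for H2-T22.

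Strain differences at these genes compare alleles as well as strains, read by a reference of 1 haplotype. Members at or under 10 counts in every mouse, and H2-Q1, H2-Q10 and H2-Bl in NOD.H-2b, were limited by depth.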
